A study of Mus musculus with 33 samples.

Results

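The phagocyte NADPH oxidase is followed here through 6 mouse genes: Cybb and Cyba, which encode the membrane subunits, Ncf1 and Ncf4, which encode cytosolic subunits, and Rac1 and Rac2, which encode small GTPases. The members are the rows of a deposited count table whose gene identifiers map to these symbols, 6 of 54752 features, and all 6 passed the filter on low counts. The libraries are RNA-seq of sorted bone marrow cells of wild-type mice, 33 in 11 groups of 3 biological replicates. On the neutrophil path, control mice gave Ly6C-negative granulocyte-monocyte progenitors (Ly6C- GMP, called GMP below), proNeu1, proNeu2 and preNeu cells, in that order of maturation. On the monocyte path, control mice gave common monocyte progenitors (cMoP), transitional pre-monocytes (TpMo) and Ly6Chi monocytes. The 4 neutrophil path populations were also sorted on day 3 of a mid-grade CLP (caecal ligation and puncture), an operation that lets gut bacteria leak into the abdomen and so causes sepsis; no monocyte path population was taken from septic mice. The labels give no strain, age or sex, and do not say whether cells of several mice were pooled or whether the controls had sham surgery.

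The phagocyte oxidase moves electrons from cytosolic NADPH across the membrane to oxygen and makes superoxide inside the phagosome or outside the cell. The proteins of Cybb (gp91phox, the electron-carrying subunit) and Cyba (p22phox, which stabilises it) form a membrane cytochrome that is idle in resting cells. On stimulation cytosolic subunits, among them the organiser p47phox (Ncf1) and p40phox (Ncf4, which binds a phosphoinositide of the phagosome), move to it together with a GTP-bound Rac. Loss of these subunits causes chronic granulomatous disease, and neutrophils depend mainly on Rac2.

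Total counts ran from 5.52 M to 39.98 M per library, with 5 shallow libraries at or under 6.78 M (1 each of control proNeu1, control preNeu, Ly6Chi monocytes, septic proNeu1 and septic preNeu) and the other 28 at 17.2 M or more. Marker genes followed the labels: the summed level of Ltf, Ngp, Camp, Lcn2 and Ly6g rose to 87580 CPM in control preNeu from 74.9 in GMP, and that of Csf1r, Ccr2, Ly6c2, Klf4 and Fn1 to 12560 CPM in Ly6Chi monocytes from 292 in GMP. Eosinophil markers summed to 5634 CPM in control GMP and 3342 in septic GMP, and to at most 195 CPM in every other group. The 24 neutrophil path libraries held Xist at 155 to 503.5 CPM and Ddx3y at most at 0.783 CPM, while the 9 monocyte path libraries held Xist at most at 1.24 CPM and Ddx3y at 61.2 to 94.7 CPM. Sex by these transcripts therefore differs in every library between the paths, and path and sex cannot be told apart in a comparison of a monocyte path group with GMP or with a neutrophil path group, including those of the X-linked Cybb. Levels below are CPM, counts scaled to one common library size with TMM factors; a gene is called changed in edgeR's quasi-likelihood test at a Benjamini-Hochberg adjusted p under 0.05 over 18198 genes. In bulk RNA of a sorted population, fewer cells of a type and less RNA per cell cannot be told apart.

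The members lie at 5 places in the mouse genome (GRCm38, gene spans as deposited): Cybb at chrX:9435252-9487771, Cyba at chr8:122424776-122432930, Ncf1 at chr5:134220053-134229625 and Rac1 at chr5:143503634-143528036, with Ncf4 at chr15:78244801-78262580 and Rac2 at chr15:78559167-78572783 in one neighbourhood. Counting is over exons. The upstream sequences of Cybb and Cyba are shown because their products work as one complex while their RNAs rose by very different amounts (below). They are the 130 bases before the RefSeq start (GRCm38.p6, both on the minus strand), chrX:9469325-9469454 for Cybb, which lies inside the deposited gene span, and chr8:122432941-122433070 for Cyba. Capitals mark matches to AGGAA, the core letters that ETS factors such as PU.1 bind, and CCAAT.
Cybb: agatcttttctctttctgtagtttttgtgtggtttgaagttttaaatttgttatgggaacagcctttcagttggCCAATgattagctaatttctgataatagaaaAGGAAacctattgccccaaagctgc
Cyba: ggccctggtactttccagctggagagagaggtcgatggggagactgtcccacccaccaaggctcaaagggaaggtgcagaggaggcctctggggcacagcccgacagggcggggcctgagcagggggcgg
G and C make up 35.4% of the Cybb stretch and 67.7% of the Cyba stretch. Searched on both strands of the 250 bases upstream, AGGAA and CCAAT were each found once in Cybb, starting 25 and 56 bases before the start, and in neither Cyba nor Ncf1. They are common letters: 60.3% of 32851 promoters of that length hold AGGAA and 33.9% hold CCAAT. The C/EBP palindrome TTGCNNAA (9.56% of promoters) matched none of the 3, and AGATAA, the letters of GATA factors (9.99%), matched once in Cybb and once in Cyba. A match is only a match of letters. The RefSeq table used here had entries for 3 of the 6 members.

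Reads of the 2 GTPase genes can be told apart, which matters below because Rac1 and Rac2 behaved differently. Their coding sequences are 579 bases each and 77.0% identical, with 133 differing bases and no identical run longer than 29 bases, and they share no 100-base word. The last 60 coding bases (positions 520 to 579 of the coding sequence of the annotated transcripts Rac1-201 and Rac2-201), which encode the tail that anchors the protein at membranes, are shown with the 28 differing bases in capitals.
Rac1: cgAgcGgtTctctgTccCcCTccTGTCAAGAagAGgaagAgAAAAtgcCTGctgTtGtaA
Rac2: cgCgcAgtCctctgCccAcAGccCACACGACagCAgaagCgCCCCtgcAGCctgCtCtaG
Rac1 has a different overlap. Of its 4496 exonic bases, 2309 are also exons of Daglb on the opposite strand, and 49.2% of its 100-base words also occur in Daglb transcripts. Ncf1 shares 408 of 3663 exonic bases with Gtf2ird2. Rac1 and Ncf1 counts are uncertain by the reads that fall in these shared bases. The strand setting of the counting is not given in the sources used here.

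All 6 members were higher in control preNeu than in control GMP, against 18.2% of all tested genes called higher in that comparison. Cybb rose by far the most, Ncf1 and Ncf4 by more than 11-fold each, and Cyba and Rac2 about 5-fold each. The steps were uneven: 5 of 6 members were called higher from GMP to proNeu1 (3.59% of genes), 3 of 6 from proNeu1 to proNeu2 (1.57%) and 6 of 6 from proNeu2 to preNeu (13.1%). The median log2 change of the members was 1.12, 0.66 and 1.67 in those steps, beside 0.00, -0.01 and 0.00 over all genes.

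**Figure D1:**
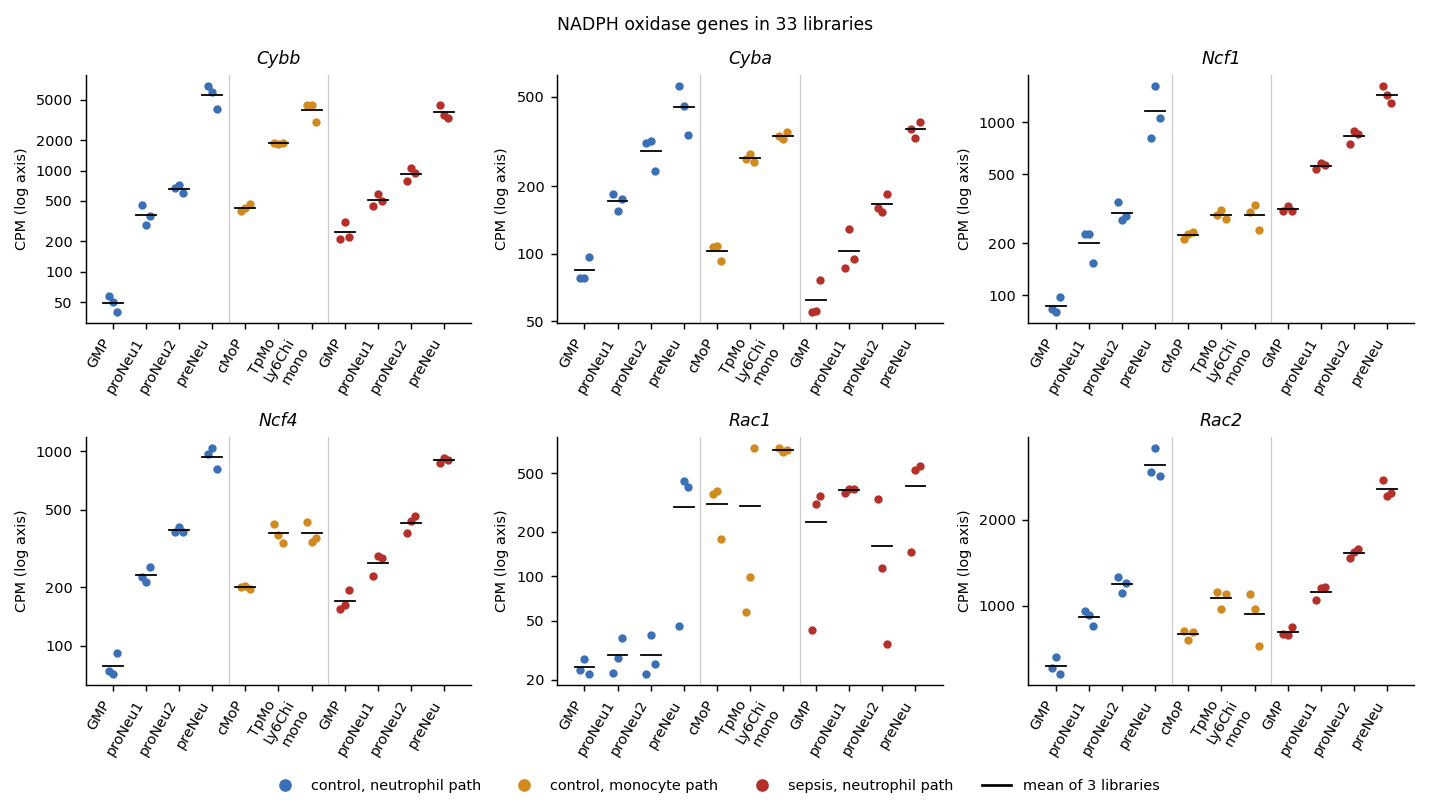
Level of each oxidase gene (CPM, log axis, a separate scale per panel) in each library, with 3 points per group and a line at the mean; control neutrophil path in blue, control monocyte path in orange, septic neutrophil path in red. Cybb climbs from 49.4 CPM in control GMP to 5614 in control preNeu and 3979 in Ly6Chi monocytes, while Rac1 is split between low and high libraries inside several groups.

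Cybb had the steepest course. Its levels in the 3 libraries were 57.7, 50.3 and 40.1 CPM in GMP, 457, 292 and 352 in proNeu1, 666, 726 and 600 in proNeu2, and 6858, 5973 and 4009 in preNeu. No 2 consecutive populations overlapped. From GMP to preNeu the rise was 114-fold (log2 6.83 ± 0.25 SE, edgeR adjusted p = 4.82e-18). Most of it came in 2 steps, GMP to proNeu1 (log2 2.89 ± 0.21) and proNeu2 to preNeu (3.08 ± 0.21). The step between them, 0.86 ± 0.19 (adjusted p = 0.0123), lost its call without proNeu1 replicate 2 (adjusted p = 0.0742) or proNeu2 replicate 2 (0.061).

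Cyba, the partner of Cybb, rose in smaller and more even steps. It stood at 78.4, 78.3 and 96.7 CPM in GMP, 185, 156 and 176 in proNeu1, 312, 318 and 232 in proNeu2, and 559, 456 and 339 in preNeu. The populations did not overlap, and the preNeu libraries were the most spread. From GMP to preNeu the rise was 5.35-fold (log2 2.42 ± 0.17, edgeR adjusted p = 3.81e-12), with log2 steps of 1.02, 0.74 and 0.65. The middle step was not called without proNeu1 replicate 2 (adjusted p = 0.0575) or proNeu2 replicate 2 (0.0623), and the last step lost its call with only the libraries compared (log2 0.64, adjusted p = 0.0519).

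Ncf1, the organiser that bridges the cytosolic complex to p22phox, moved from 83.5, 80.3 and 98.5 CPM in GMP to 226, 226 and 154 in proNeu1. It was at 344, 271 and 286 CPM in proNeu2, and at 804, 1619 and 1049 in preNeu, where replicate 2 held the highest value. Each population was above the one before in every library. The rise from GMP to preNeu was 13.2-fold (log2 3.73 ± 0.19, edgeR adjusted p = 8.70e-15), and the step from proNeu1 to proNeu2 was not called (log2 0.57 ± 0.17, adjusted p = 0.0680).

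Ncf4 followed a like course at similar counts, with 74.1, 71.5 and 91.4 CPM in GMP, 225, 213 and 253 in proNeu1, 384, 408 and 385 in proNeu2 and 968, 1040 and 809 in preNeu. Its populations were separate at each step, and all 3 steps were called (log2 1.54, 0.77 and 1.26). The rise from GMP to preNeu was 11.9-fold (log2 3.57 ± 0.13, edgeR adjusted p = 9.82e-18). The 95% intervals of the Ncf1 rise (3.35 to 4.10) and the Ncf4 rise (3.31 to 3.84) overlapped.

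Rac2, the GTPase that predominates in blood cells, was already abundant in GMP at 605, 659 and 576 CPM. It read 961, 930 and 852 CPM in proNeu1, 1261, 1106 and 1202 in proNeu2, and 2945, 3572 and 2857 in preNeu. The populations did not overlap, and the rise from GMP to preNeu was 5.09-fold (log2 2.35 ± 0.11, edgeR adjusted p = 3.07e-15). Its middle step was at the edge of the threshold (log2 0.38 ± 0.11, adjusted p = 0.0527).

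Rac1, the widely expressed GTPase, was low in all 9 control libraries before preNeu, at 21.8 to 40.4 CPM. In preNeu it read 46.3, 444 and 400 CPM, so 1 library stayed near the proNeu2 level and the other two were far above it. The call of a rise from GMP to preNeu (log2 3.61 ± 0.87, edgeR adjusted p = 0.00135) has the largest error of the 6 members. The split of the libraries is described further below.

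On the monocyte path the same genes rose to a different balance. All 6 members were called higher in Ly6Chi monocytes than in GMP (20.1% of genes were called higher). Cybb came close to its preNeu level, whereas Ncf1, Ncf4 and Rac2 had no called change after TpMo and stayed well below their preNeu levels. By step, 5 of 6 members were called higher from GMP to cMoP (9.22% of genes), 4 of 6 from cMoP to TpMo (9.52%) and 1 of 6, Cybb, from TpMo to Ly6Chi monocytes (7.59%).

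Cybb read 399, 422 and 468 CPM in cMoP, 1886, 1846 and 1852 in TpMo, and 4458, 4472 and 3007 in Ly6Chi monocytes. The 3 groups were separate, and all 3 steps from GMP were called (log2 3.12 ± 0.21, 2.11 ± 0.20 and 1.10 ± 0.19). The total from GMP was 80.6-fold (log2 6.33 ± 0.24, edgeR adjusted p = 4.91e-18).

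Cyba read 107, 108 and 93.1 CPM in cMoP, overlapping GMP, and its change there was not called (log2 0.28 ± 0.16, edgeR adjusted p = 0.254). It then rose to 265, 277 and 256 CPM in TpMo (log2 1.37 ± 0.16, adjusted p = 4.76e-07) and stood at 333, 326 and 349 CPM in Ly6Chi monocytes. The cytochrome genes thus differed in when they rose: Cybb was 8.71-fold above GMP in cMoP, where Cyba was 1.22-fold above it.

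Ncf1 read 212, 225 and 234 CPM in cMoP, 290, 311 and 276 in TpMo, and in the monocytes 303, 334 and 238. Only the first step from GMP was called (log2 1.35 ± 0.18, edgeR adjusted p = 1.75e-06). Ncf4 read 201, 204 and 197 CPM in cMoP, 425, 372 and 338 in TpMo and 432, 343 and 360 in Ly6Chi monocytes, and was called in the first 2 steps (log2 1.35 and 0.92). The TpMo and monocyte libraries overlapped for both genes, with differences of -0.01 ± 0.17 and 0.00 ± 0.12 on the log2 scale. Ly6Chi monocytes had 3.33-fold more Ncf1 and 4.79-fold more Ncf4 than GMP.

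Rac2 changed least on this path. It read 817, 760 and 806 CPM in cMoP, 1113, 977 and 1101 in TpMo, and in the monocytes 1101, 972 and 722, 1.52-fold above GMP (log2 0.60 ± 0.11, edgeR adjusted p = 4.28e-05). The step from GMP to cMoP (log2 0.37) lost its call when GMP replicate 1 or 3 or cMoP replicate 1 or 3 was left out (adjusted p = 0.0551 to 0.0870). The step to TpMo (0.42) lost it without cMoP replicate 2 (adjusted p = 0.0537) or TpMo replicate 1 (0.0504), and with no scaling factors (0.0935). In the last step Rac2 was called lower only without Ly6Chi monocyte replicate 1 (log2 -0.35, adjusted p = 0.0336).

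Rac1 was higher on this path: 362, 381 and 179 CPM in cMoP, 57.8, 99.1 and 739 in TpMo, and in the monocytes 735, 699 and 722. It was the highest member relative to GMP after Cybb in monocytes (29.6-fold, log2 4.89 ± 0.92, edgeR adjusted p = 6.40e-05). The step from TpMo to monocytes was not called in the edgeR fit of all libraries. It was called without TpMo replicate 3, which stood at the monocyte level (log2 3.16, edgeR adjusted p = 0.00865), and by limma with sample weights (log2 2.28, adjusted p = 0.0217).

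Set against each other, the last sorted populations of the 2 paths differed most in the cytosolic genes and Rac2. How far these populations match in maturity was not tested. In control preNeu against Ly6Chi monocytes, 5 of 6 members were called higher (21% of genes): Ncf1 by 3.97-fold (log2 1.99 ± 0.18), Rac2 by 3.36-fold (1.75 ± 0.11) and Ncf4 by 2.48-fold (1.31 ± 0.12), with groups that did not overlap for any of the 3. For Cybb (log2 0.50 ± 0.19, edgeR adjusted p = 0.0384) and Cyba (0.43 ± 0.16, adjusted p = 0.0349) the calls were weak. The libraries of Cybb overlapped and its call was lost without preNeu replicate 1 or 2 or Ly6Chi monocyte replicate 3 (adjusted p = 0.116 to 0.248). That of Cyba was lost without preNeu replicate 1 or 2 or Ly6Chi monocyte replicate 1 or 2 (adjusted p = 0.051 to 0.307). With no scaling factors, which moved the log2 changes of the 151 listed genes in this comparison by a median of -0.20, neither was called. Rac1 was 2.43-fold lower in preNeu, which was not called (adjusted p = 0.206).

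Earlier on the paths, proNeu2 was set against cMoP, and 4 of 6 members were called higher (12.2% of genes) and 1 lower (12.1%). Cyba differed most among those called higher (2.80-fold, log2 1.48 ± 0.16, edgeR adjusted p = 6.45e-08), followed by Ncf4 (log2 0.97) and Rac2 (0.58). Rac1 was 10.5-fold lower in proNeu2 (log2 -3.39 ± 0.86, adjusted p = 0.00375), and its libraries did not overlap. Cybb was 1.54-fold higher (adjusted p = 0.0156), a call lost without proNeu2 replicate 2, cMoP replicate 1 or cMoP replicate 2 (adjusted p = 0.0585 to 0.0681) and, with no scaling factors, at an adjusted p of 0.0763.

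Over all 11 groups the span from the lowest to the highest group mean was 114-fold for Cybb, 29.6-fold for Rac1, 16.5-fold for Ncf1, 11.9-fold for Ncf4, 7.24-fold for Cyba and 5.09-fold for Rac2. For Cybb control GMP was lowest and separate from the next group. Septic GMP, control proNeu1, cMoP and septic proNeu1 followed, and each overlapped the next. Control proNeu2, septic proNeu2 and TpMo followed, each separate from the next. Septic preNeu, Ly6Chi monocytes and control preNeu formed an overlapping top. Septic GMP held the lowest Cyba, below control GMP in every library, whereas it ranked 7 of 11 from the lowest for Ncf1. Control preNeu held the highest mean of Cybb, Cyba, Ncf4 and Rac2, septic preNeu that of Ncf1 and Ly6Chi monocytes that of Rac1. For Rac1, 9 of 10 pairs of neighbours in the order overlapped.

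In septic mice the largest number of oxidase genes was called in the earliest population. In GMP, 5 of 6 members were called higher after CLP (10.3% of genes), among them Cybb 5.02-fold and Ncf1 3.59-fold. In proNeu1, 2 members were called higher (8.3% of genes) and 1 lower (7.3%), and in proNeu2, 3 higher (9.45%) and 1 lower (7.57%). In preNeu none of the 6 was called in either direction (11.8% of genes were), with 3 of 6 (Cybb, Cyba and Rac2) at an unadjusted p under 0.05. DESeq2 called 2 members there, Cybb and Rac2, both lower.

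**Figure D2:**
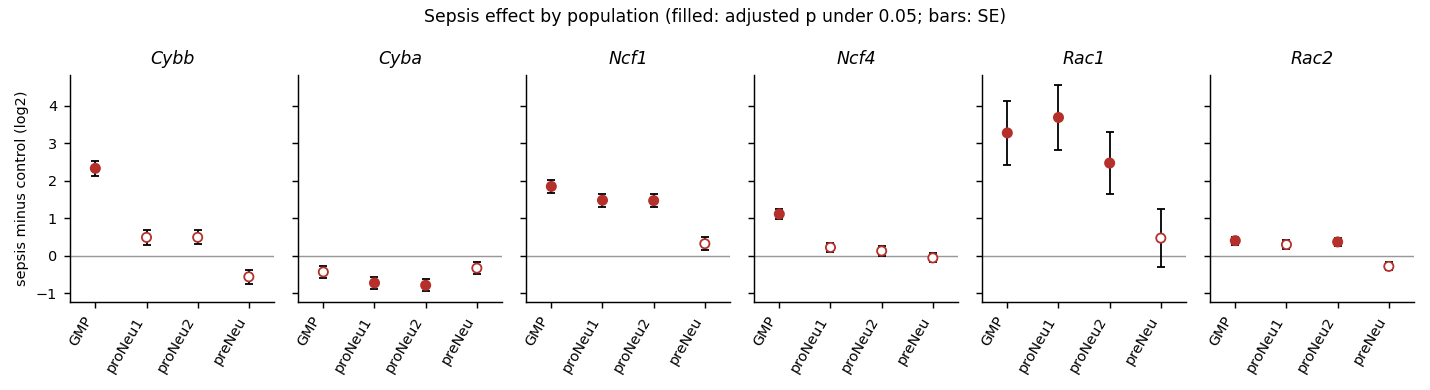
Sepsis minus control on the log2 scale for each oxidase gene in the 4 neutrophil path populations; points are the fitted changes, bars are 1 SE, and filled points have an adjusted p under 0.05. Cybb falls from 2.33 in GMP to -0.57 in preNeu, Cyba stays below 0 in all 4 populations and the bars of Rac1 are the widest.

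Cybb read 212, 309 and 222 CPM in septic GMP, against at most 57.7 in control GMP. The groups did not overlap (log2 2.33 ± 0.20, edgeR adjusted p = 3.60e-09). In proNeu1 the septic libraries (445, 591 and 502 CPM) overlapped the controls (log2 0.48 ± 0.19, adjusted p = 0.0871), and the change was called without the shallow control proNeu1 replicate 1 (0.66, adjusted p = 0.0392). In proNeu2 they read 790, 1047 and 953 CPM, all above the controls, but the change of 0.49 ± 0.19 was not called (adjusted p = 0.0806).

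In preNeu the sign turned. Septic libraries held 4466, 3569 and 3327 CPM of Cybb against 6858, 5973 and 4009 in controls, and 1 septic library lay above the lowest control. The change of -0.57 ± 0.19 on the log2 scale missed the threshold (edgeR adjusted p = 0.0503). It was called without the shallow control preNeu replicate 3 (-0.75, adjusted p = 0.00578), without septic preNeu replicate 1 (-0.69, 0.0374) and without the 5 shallow libraries (-0.67, 0.0288). Markers of late neutrophils moved there too: the summed level of Ltf, Ngp, Camp, Lcn2 and Ly6g was 27220 to 37330 CPM in septic preNeu and 65700 to 105100 in control preNeu. By gene, 3 of these 5 were called lower in septic preNeu (Ltf, Camp and Ly6g). Ngp (log2 -1.43, edgeR adjusted p = 0.0504) and Lcn2, which pointed the other way (0.36), were not called. The sum of the azurophil granule genes Mpo, Elane, Prtn3 and Ctsg was 21400 to 22220 CPM in septic preNeu and 10650 to 21450 in controls. The part of these shifts in the Cybb change was not tested.

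Cyba, the partner of Cybb, was lower in septic mice. It read 55.1, 55.9 and 76.0 CPM in septic GMP, 86.2, 129 and 94.8 in septic proNeu1 and 160, 153 and 185 in septic proNeu2, in each population below every control library. The change was called in proNeu1 (1.66-fold lower, log2 -0.73 ± 0.16, edgeR adjusted p = 0.00226) and in proNeu2 (1.73-fold lower, -0.79 ± 0.16, adjusted p = 0.000839). In GMP it was -0.44 ± 0.16 (adjusted p = 0.0611), and it was called without septic GMP replicate 3 (-0.61, adjusted p = 0.0212). Septic preNeu read 359, 329 and 386 CPM, overlapping controls (-0.34 ± 0.16, adjusted p = 0.200), with a call without control preNeu replicate 3 (-0.50, adjusted p = 0.0334).

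Ncf1 rose in septic mice in each population up to proNeu2. It read 306, 329 and 306 CPM in septic GMP, 539, 581 and 563 in septic proNeu1 and 746, 894 and 849 in septic proNeu2, each time above every control library of that population. The changes were log2 1.84 ± 0.18 (edgeR adjusted p = 2.45e-08), 1.48 ± 0.18 (1.58e-06) and 1.47 ± 0.18 (1.06e-06). In preNeu the septic libraries held 1615, 1425 and 1284 CPM, inside the control range, and the change of 0.32 ± 0.17 was not called (adjusted p = 0.271). Without control preNeu replicate 2, the highest control, it was 0.65 (adjusted p = 0.00645). Gtf2ird2, whose exons overlap those of Ncf1, stayed at 64.3 CPM or less in every group mean.

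Ncf4 was called higher in septic GMP and not in the other 3 populations. Its libraries in GMP read 154, 163 and 194 CPM, above all controls (2.16-fold, log2 1.11 ± 0.12, edgeR adjusted p = 2.45e-07). In proNeu1 it read 230, 288 and 284 CPM, in proNeu2 381, 436 and 464, and in preNeu 873, 920 and 904. All 3 sets overlapped their controls, and the changes of 0.22, 0.12 and -0.06 were not called.

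Rac2 changed little in size. Septic libraries read 798, 787 and 839 CPM in GMP, 1044, 1151 and 1162 in proNeu1 and 1471, 1543 and 1578 in proNeu2, all above their controls. The change was called in GMP (1.32-fold, edgeR adjusted p = 0.0108) and proNeu2 (1.29-fold, adjusted p = 0.0200), not in proNeu1 (1.22-fold, adjusted p = 0.0703). The GMP call was lost without control GMP replicate 3 (adjusted p = 0.0581), and the proNeu2 call without control proNeu2 replicate 2, septic proNeu2 replicate 2 or septic proNeu2 replicate 3 (0.0615 to 0.112). Septic preNeu, at 2763, 2432 and 2475 CPM, lay below every control, with a change of -0.29 ± 0.11 (adjusted p = 0.0869) that was called without control preNeu replicate 3 (-0.34, 0.0422).

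Rac1 read 43.6, 310 and 349 CPM in septic GMP, 369, 390 and 391 in septic proNeu1, 336, 114 and 35.0 in septic proNeu2, and 147, 524 and 558 in septic preNeu. The septic libraries were above all controls in GMP and proNeu1 and overlapped them in proNeu2 and preNeu. The calls were log2 3.27 ± 0.85 in GMP (edgeR adjusted p = 0.00708), 3.68 ± 0.87 in proNeu1 (0.00385) and 2.47 ± 0.83 in proNeu2 (0.0387). The proNeu1 call was lost without the 5 shallow libraries (adjusted p = 0.0574). The proNeu2 call was lost when any 1 of the libraries other than septic replicate 3 was left out (control replicates 1, 2 and 3 and septic replicates 1 and 2, adjusted p = 0.0531 to 0.323). With limma's sample weights neither the GMP change (adjusted p = 0.0782) nor that of proNeu2 (0.326) was called.

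Averaged over the 4 populations, 5 of 6 members were higher in sepsis (19.6% of genes were called higher) and Cyba was lower (17.5%). The mean log2 changes were 2.47 ± 0.41 for Rac1, 1.28 ± 0.09 for Ncf1, 0.68 ± 0.10 for Cybb, 0.35 ± 0.06 for Ncf4, 0.19 ± 0.05 for Rac2 and -0.57 ± 0.08 for Cyba. The mean hides unequal effects. A test of whether the 4 populations differ in their response was called for 4 of 6 members (6.34% of genes): Cybb (edgeR adjusted p = 5.40e-07), Ncf4 (0.000172), Ncf1 (0.000713) and Rac2 (0.0106). The Rac2 call was lost without control preNeu replicate 2 (0.0684) or septic preNeu replicate 2 (0.0509). For Cyba (0.453) and Rac1 (0.232) a difference between populations was not called.

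The septic effect in preNeu minus that in GMP was below 0 for the same 4 genes (2.99% of genes were called lower). It was -2.89 ± 0.28 on the log2 scale for Cybb, -1.53 ± 0.25 for Ncf1, -1.17 ± 0.17 for Ncf4 and -0.69 ± 0.15 for Rac2. For Cyba it was 0.10 ± 0.23, with a 95% interval from -0.35 to 0.55. The Rac1 difference of -2.81 ± 1.13 was not called (edgeR adjusted p = 0.157).

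Markers of other cells also moved with sepsis, and their part in the oxidase changes was not tested. The summed level of the B lineage genes Cd79a, Cd79b, Ms4a1, Ighm and Igkc was 676 to 852 CPM in control GMP and 39.1 to 81.9 in septic GMP, and 3154 to 5788 in control proNeu1 and 99.5 to 299.4 in septic proNeu1. Fewer B lineage transcripts also marked septic proNeu2 (36.0 to 73.7 against 408 to 516 CPM) and septic preNeu (36.2 to 74.2 against 349.6 to 989.7). The dendritic cell list (H2-Aa, H2-Ab1, Cd74, Siglech, Flt3) summed to 2223 to 3125 CPM in control GMP and 28.3 to 40.8 in septic GMP. The monocyte markers (Csf1r, Ccr2, Ly6c2, Klf4, Fn1) summed to 267 to 313 CPM in control GMP and 251 to 407 in septic GMP, 854 to 1324 in control and 692 to 799 in septic proNeu1, and 893 to 1444 in control and 715 to 807 in septic proNeu2. By gene, only Klf4 was called lower in septic GMP, Ly6c2 and Klf4 in septic proNeu1 and only Ly6c2 in septic proNeu2, and none was called higher. The median log2 change of the 5 markers was 0.07, -0.77 and 0.78 in those populations. In preNeu their sum was 668 to 1346 CPM in controls and 1342 to 1912 in septic mice, where 4 of 5 were called higher (median log2 3.56), led by Fn1, the fibronectin gene (6.75), and Ccr2, a chemokine receptor (4.42).

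Ratios within a library do not depend on depth or on scaling between libraries, and they put the unequal changes of partner genes in one number. Per kilobase of exon, the Cybb to Cyba ratio of control GMP was 0.132, 0.115 and 0.0742, so Cyba transcripts were in excess. The ratio was 0.379 ± 0.057 (SD, n = 3) in proNeu1, 0.417 ± 0.041 in proNeu2 and 2.22 ± 0.11 in preNeu. On the monocyte path it was 0.755 ± 0.126 for cMoP, 1.25 ± 0.06 for TpMo and 2.13 ± 0.51 for Ly6Chi monocytes. The last sorted populations of both paths therefore had about 2 Cybb for each Cyba on this measure, with overlapping libraries.

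In septic mice the ratio of Cybb to Cyba was 0.689, 0.988 and 0.522 in GMP, 0.923, 0.822 and 0.947 in proNeu1 and 0.885, 1.22 and 0.920 in proNeu2. Every septic library of these populations was above every control library of the same population. In septic preNeu it was 2.23, 1.94 and 1.54, overlapping the controls. The mean in septic GMP, 0.733, was above that of control proNeu2.

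The ratio of Ncf1 to Ncf4 showed the septic change as plainly. Over the 12 control libraries of the neutrophil path it lay between 0.336 and 0.859 per kilobase, and over the 12 septic libraries between 0.783 and 1.29. It was 0.612 ± 0.016 in control GMP and 1.03 ± 0.13 in septic GMP, and the 2 groups were separate in GMP, proNeu1 and proNeu2 and overlapped in preNeu. On the monocyte path it stayed between 0.365 and 0.655.

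**Figure D3:**
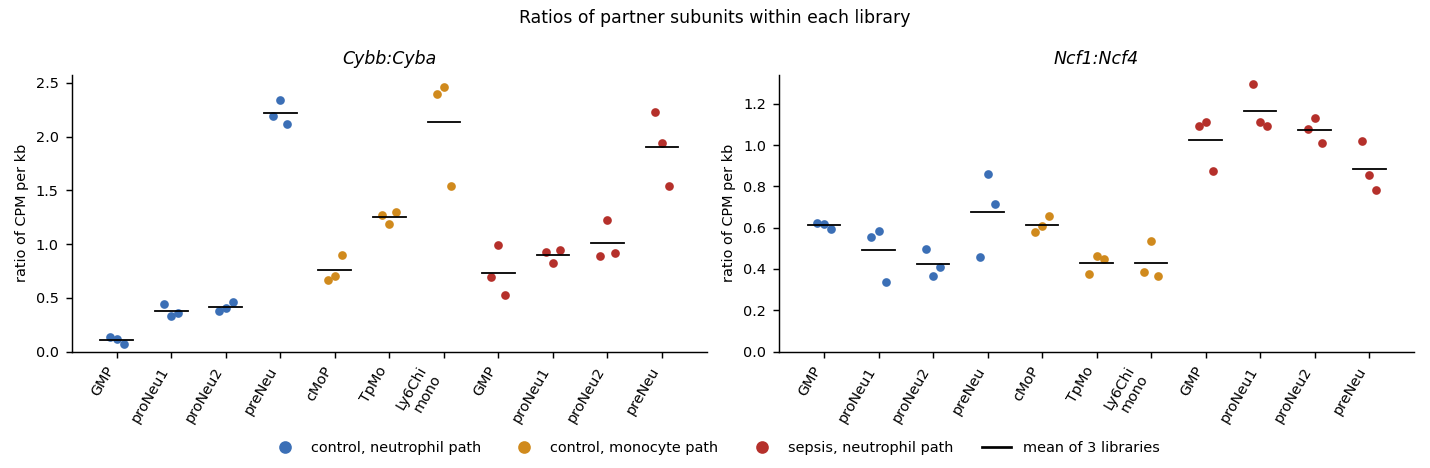
Ratio of Cybb to Cyba (left) and of Ncf1 to Ncf4 (right) within each library, in CPM per kilobase of exon, with 3 points per group and a line at the mean; colours mark the control neutrophil path, control monocyte path and septic neutrophil path. Cybb to Cyba reaches about 2 in preNeu and Ly6Chi monocytes, and Ncf1 to Ncf4 is higher in septic GMP, proNeu1 and proNeu2 than in the matching controls.

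Summed per kilobase over the 6 members, Rac2 made up 55.6% in control GMP and Cybb 2.39%. In control preNeu the shares were 30.9% for Rac2 and 29.7% for Cybb, and in Ly6Chi monocytes 17.3% and 39.5%. Ncf1 took 6.71% of the sum in control GMP and 14.6% in septic GMP, while Cyba took 22.8% and 10.3%.

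Rac1 stood apart from the other 5 members in how its libraries scattered. Its within-group SD of log2 CPM averaged 0.89, larger than that of 99.9% of 8701 genes with a group mean of 20 CPM or more (median 0.23). Those of Cybb (0.23), Ncf1 (0.18), Cyba (0.18), Ncf4 (0.13) and Rac2 (0.11) were near or below that median. In TpMo, replicate 3 held 739 CPM of Rac1 and replicate 1 held 57.8, whereas Rac2 was 1101 and 1113 CPM in the same libraries. Control preNeu replicates 1 (46.3 CPM of Rac1) and 2 (444 CPM) had 21.5 M and 22.7 M counts in all.

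Lamp1, a lysosomal membrane protein gene on another chromosome, split in the same libraries. It read 64.8, 593 and 541 CPM in control preNeu, 306, 495 and 1633 in TpMo, 98.2, 458 and 420 in septic GMP and 616, 302 and 72.3 in septic proNeu2. In each of these groups the library lowest in Rac1 was also lowest in Lamp1. Pearson's r of the log2 levels was 0.956 over 33 libraries, a description only. Daglb, whose exons overlap those of Rac1, read 151, 203 and 168 CPM in control preNeu and 196, 184 and 197 in TpMo. What the high and low libraries differ in was not tested. The Rac1 changes that involve control preNeu, TpMo, cMoP, septic GMP, septic proNeu2 or septic preNeu include groups with such a spread, whereas the 3 libraries lay close together in control GMP, Ly6Chi monocytes and septic proNeu1.

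**Figure D4:**
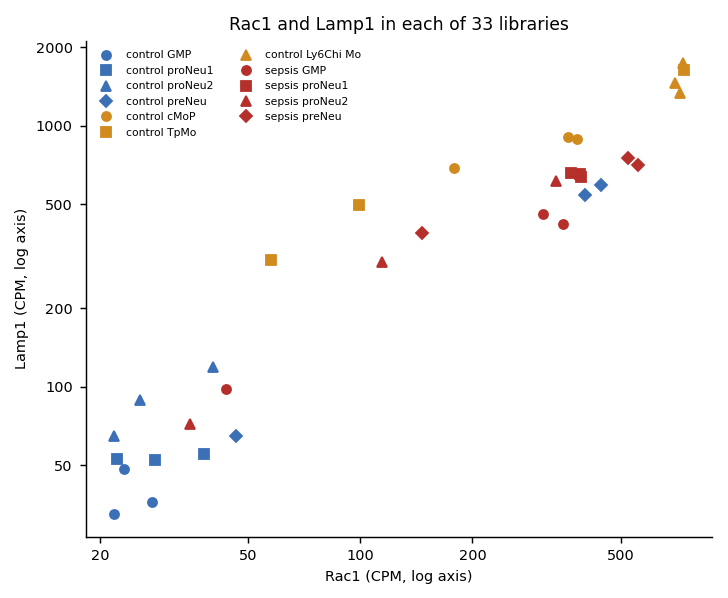
Rac1 (horizontal) against Lamp1 (vertical) in each of the 33 libraries, both in CPM on log axes; colour marks the path and condition and shape the population. Libraries of one group sit far apart along the diagonal, such as the 3 TpMo libraries from 57.8 to 739 CPM of Rac1.

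The balance of the GTPases depends on this and on the length used for Rac1. Per kilobase, Rac2 exceeded Rac1 by 36.8 ± 1.9 times (SD, n = 3) in control GMP and 1.88 ± 0.38 times in Ly6Chi monocytes. With the 2187 Rac1 bases that do not overlap Daglb exons as its length, a choice made after the data were seen, the values were 17.9 and 0.914.

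The homologues Nox1, Nox3, Nox4, Duox1 and Duox2 and the organiser and activator Noxo1 and Noxa1 were at most at 0.4 CPM in any group mean, and Rac3 at most at 2.21 CPM.

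Of 31 tested genes of oxidase assembly and activation (kinases, Rac exchange factors, phosphoinositide 3-kinases, the proton channel), 20 were higher and 2 lower in preNeu than in GMP (18.2% and 21.1% of all genes), with a median log2 change of 0.86 beside -0.15 over all genes. The largest were Prkcb, a kinase of p47phox (log2 3.00), Hvcn1, the proton channel that balances the charge moved by the oxidase (2.90), Prkca (-6.70) and Vav2 (-3.78). In Ly6Chi monocytes against GMP 19 were higher and 3 lower (20.1% and 25.5% of all genes), and Hvcn1 was among the lower (-1.59), in contrast to its rise in preNeu. Averaged over the septic populations 13 were higher and 6 lower (19.6% and 17.5% of all genes), led by Pik3r5 (1.44), Rhog (1.21), Pik3cg (-0.74) and Dock2, a Rac exchange factor (-0.57).

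Genes around the supply of NADPH, the electron donor of the oxidase, were counted as a list of 13 tested genes. Of the 13, 8 were higher and 3 lower in preNeu than in GMP, beside 18.2% and 21.1% of all genes, and the median log2 change was 1.10 beside -0.15. Among the 8 were Nadk, Rpia, Tkt and Taldo1, whose enzymes do not form NADPH themselves. In the mean septic effect 9 were higher and 1 lower, beside 19.6% and 17.5%, and the median was 0.46 beside 0.00. G6pdx and Pgd, the 2 NADPH-forming enzymes of the pentose phosphate pathway, rose in both: log2 2.90 and 2.47 in preNeu, and 1.07 and 1.13 in the mean septic effect (edgeR adjusted p from 4.82e-18 to 4.09e-11). By population, Pgd was not called in septic preNeu (0.40, edgeR adjusted p = 0.139), where the median of the list was -0.02. The septic effect in preNeu minus that in GMP was called lower for 5 of 13 (2.99% of genes), among them Pgd (-1.30). The 3 genes lower in preNeu, Idh2 (-2.22), Mthfd1 (-2.14) and Idh1 (-0.49), also encode NADPH-forming enzymes. Idh1 (-0.55) was the gene lower in the mean septic effect.

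The genes whose group means were most like each member's over the 11 groups (Pearson's r of log2 levels, 8324 candidates) are given as a description. They included Dok3 (0.990), Ralb (0.988) and Mcemp1 (0.983) for Cybb, and Itgam (0.971) and Clec4a2 (0.970) for Cyba. For Ncf1 they were Paqr7 (0.981), Ppp1r2 (0.980) and Ube2j1 (0.978), and for Ncf4 Acap2 (0.979), Col4a3bp (0.975) and Limd2 (0.966). For Rac2 they were Acsl1 (0.985), Kbtbd7 (0.984) and Lmtk2 (0.984), and for Rac1 Lamp1 (0.972), Ltbr (0.964) and Spg7 (0.964). The 6 lists share no gene. Among the members themselves r ran from 0.232 for Cyba with Rac1 to 0.930 for Cybb with Ncf4.

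Ncf4 and Rac2 lie on chromosome 15 with the cytokine receptor genes Csf2rb and Csf2rb2 between them. Of 26 annotated features from 100 kb before Ncf4 to 100 kb after Rac2, 11 were tested, the 2 members included. In the mean septic effect 7 of these were higher and 2 lower, beside 19.6% and 17.5% of all genes. Kctd17 (log2 3.22) and Csf2rb2 (2.27) rose most, beside 0.35 for Ncf4 and 0.19 for Rac2, and Gm36738 (-2.56) and Ift27 (-0.65) fell. These means hide unequal effects. Taken by population, Kctd17 was called in preNeu only (7.70) and Gm36738 in none. Csf2rb2 was not called in GMP (-0.14), nor Ift27 in preNeu (-0.09). Csf2rb and Csf2rb2 are near-identical copies, so the division of reads between them is uncertain.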

How the data were processed

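Cells sorted from mouse bone marrow gave 33 libraries made with the SMARTSeq v2 and Nextera XT protocols, per the labels' protocols. The deposited table holds read counts per gene, which the authors made with STAR, featureCounts and the GRCm38 genome, per the submitters' processing notes; versions, strand setting and treatment of multi-mapped reads are not given in the sources used here. Of the counts from 1 to 10, 76.2% are even, and how read pairs were counted is not stated. The table holds 0 spike-in features. Groups come from the titles. No libraries were identical, and log2 levels of replicates correlated at 0.961 to 0.989 in 33 pairs across genes.

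The counts were tested as deposited with edgeR 4.0.16 (quasi-likelihood, TMM factors, filterByExpr) in 1 fit of all 33 libraries with 22 residual degrees of freedom. Of 54752 features, 54723 matched a GENCODE M21 symbol and 18198 were tested; Benjamini-Hochberg adjustment ran over all tested genes in each comparison, and an adjusted p under 0.05 was a call. Ratios use the deposited exon lengths. Alternatives were DESeq2 1.42.0, limma 3.58.1 with sample weights, a test against a 1.5-fold change, other scaling, filters and library sets, halved counts, and leaving out each library. The fit was tested on simulated data first.

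The named genes are the 6 members, the 3 genes most like each, and in each list up to 2 called genes with the largest rise and fall. A few further genes of the lists are named where they qualify a count or a sum. Some genes of these lists are not reported here. The members and lists were chosen with earlier results of these data known. Promoters are from RefSeq (GRCm38.p6), and coding sequences from the GENCODE transcripts; no protein sequence was used here. In the edgeR fit of all 33 libraries, p-values weigh a change against a spread per gene. That spread is estimated within groups and shared by all 11 groups. A group with tight or split libraries gets no error of its own.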

Additional observations from a re-analysis of the deposited data

Results flagged for a closer look

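The response to CLP differed between the 4 neutrophil path populations for 4 oxidase genes, by a test of the difference itself. For Cybb the adjusted p in edgeR was 5.40e-07 over the 4 populations and 5.44e-08 for preNeu against GMP, with a 5.02-fold rise in septic GMP and a 1.48-fold lower level in septic preNeu. For Ncf1 the values were 0.000713 and 0.000159, and for Ncf4 0.000172 and 4.90e-05. For Rac2 they were 0.0106 and 0.00561. Controls and septic mice of 1 population give each effect, so the effects share no libraries. The labels do not say whether the populations were sorted from the same mice. Both tests of a gene use the GMP and preNeu libraries, so their p-values are not independent.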

How the results depend on the processing

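No paired analysis was possible because the labels give no replicate numbers that tie libraries of different groups. Of the 6 members, all were called from GMP to preNeu under every alternative run. Tested against a 1.5-fold change, 3 members were called from GMP to proNeu1, 0 from proNeu1 to proNeu2, 3 in proNeu2 against cMoP, 3 in preNeu against Ly6Chi monocytes, 1 in septic proNeu2 and 2 in the mean septic effect. DESeq2 called 5 from proNeu1 to proNeu2. From TpMo to Ly6Chi monocytes, 2 were called by DESeq2, by limma and with only the libraries compared. In preNeu against Ly6Chi monocytes, 3 were called with RLE factors, no factors, only the libraries compared, or DESeq2. Septic proNeu1 gave 5 with only the libraries compared. Septic preNeu gave 1 with RLE factors, a stricter filter or halved counts, and 2 without the 5 shallow libraries, with limma or with DESeq2.

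Leaving out 1 library at a time gave 1 to 3 members from proNeu1 to proNeu2, 1 to 2 from TpMo to monocytes, 3 to 5 in preNeu against monocytes, 2 to 3 in septic proNeu2 and 0 to 3 in septic preNeu. In the test of whether septic effects differ it gave 3 to 4.

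Changes that turned sign were all uncalled. From TpMo to monocytes Ncf1 was 0.0894 with RLE factors, 0.0892 with DESeq2, 0.0345 with a stricter filter, 0.0186 with limma and -0.114 to 0.0855 without single libraries. Ncf4 in that step was 0.0889 with RLE factors, 0.0897 with DESeq2, 0.0373 with a stricter filter, 0.0720 without shallow libraries, 0.0127 with limma and -0.127 to 0.0641 without single libraries. Ncf4 in septic preNeu was 0.0108 with no factors and -0.151 to 0.0315 without single libraries. Cyba in the septic preNeu minus GMP effect was -0.0974 without shallow libraries and -0.0382 to 0.321 without single libraries. Without single libraries Rac1 was -0.33 to 0.213 from proNeu1 to proNeu2, -1.997 to 0.425 from cMoP to TpMo and -0.0261 to 0.911 in septic preNeu.

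Over all genes, the 1.5-fold test called 397 in place of 1100 from GMP to proNeu1, 107 of 555 to proNeu2, 2473 of 5060 to preNeu and 4616 of 7164 from GMP to preNeu. On the monocyte path it called 1201 of 3126, 1254 of 3290 and 1719 of 3802 by step, and 2059 of 4423 in proNeu2 against cMoP. In sepsis it called 868 of 3223 in GMP, 661 of 2839 in proNeu1, 802 of 3097 in proNeu2, 517 of 2145 in preNeu, 1742 of 6749 in the mean effect and 391 of 1126 in the preNeu minus GMP effect. With limma 4958 were called from GMP to cMoP, 5405 from cMoP to TpMo, 1801 in the preNeu minus GMP effect and 2227 in place of 1154 in the test of differing septic effects, where DESeq2 called 2081. DESeq2 called 1102 from proNeu1 to proNeu2. With only the libraries compared 353 were called from proNeu1 to proNeu2 and 1219 in septic preNeu, and without the shallow libraries 1745 in septic proNeu1. Leaving out 1 library moved 7 counts by over 1.5 times. From GMP to proNeu1 711 were called without control proNeu1 replicate 3. From proNeu1 to proNeu2 this held on leaving out any one of the control proNeu1 libraries or control proNeu2 replicate 2 or 3, and the count was lowest, at 226, without proNeu2 replicate 2. Septic proNeu1 gave 1880 without septic replicate 3, septic proNeu2 2060 without control replicate 2 and septic preNeu 1226 without control replicate 1. Without control preNeu replicate 2, 714 were called in the preNeu minus GMP effect and 734 in the test of differing effects. With no scaling factors the log2 changes of the 151 listed genes moved by a median of -0.44 from GMP to preNeu. The split of the Rac1 libraries in several groups, 3 libraries per group and the overlap with Daglb limit what can be said of Rac1.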

Other observations

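Genes that handle the products of the oxidase went both ways on the neutrophil path. Of 24 tested genes for superoxide and hydrogen peroxide handling, 7 were higher and 11 lower in preNeu than in GMP (18.2% and 21.1% of all genes), with a median log2 change of -0.75 beside -0.15 over all genes. The largest rises were Gpx3, a secreted glutathione peroxidase (2.47), and Prdx5, a peroxiredoxin (2.34), and the largest falls Epx, the eosinophil peroxidase (-7.73), and Srxn1, which repairs peroxiredoxins (-4.22). Averaged over the septic populations 11 were higher and 2 lower (19.6% and 17.5% of all genes), led by Gclm, a subunit of the enzyme that limits glutathione synthesis (2.38), and Prdx4 (1.02), with Mpo, myeloperoxidase (-0.69), and Prdx5 (-0.49) lower.

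Of 22 transcription factors listed for myeloid cells and oxidase promoters, 9 were higher and 7 lower in preNeu than in GMP (18.2% and 21.1% of all genes). Cebpd (3.05) and Cebpe (1.98) rose most, and Hoxa10 (-7.29) and Meis1 (-6.83) fell most. In the mean septic effect 6 were higher and 9 lower (19.6% and 17.5% of all genes), with Cebpb (4.90) and Hoxa9 (1.16) the largest rises and Cebpe (-1.57) and Meis1 (-1.36) the largest falls. The size of the Cebpb changes is uncertain. A change of log2 4.65 in control preNeu against GMP was not called (edgeR adjusted p = 0.111), and 6.25 in septic GMP was called at 0.0395. Cebpe, a factor of late neutrophil maturation, read 214, 157 and 214 CPM in control GMP and 21.5, 54.8 and 102 in septic GMP.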
